A study of Drosophila melanogaster with 6 samples.

Results

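The genes described here are 7 transcription factor genes that set tracheal fate and branch identity in the fly embryo, namely trh, tgo, rib, vvl, salm, salr and dys. They were listed by name for their known roles, with earlier results of these data in view, and are 7 of the 17714 genes in the tables, all 7 of which were among the 11568 genes tested. Their transcripts were compared between 3 libraries of Raf926 Drosophila melanogaster embryos (genotype Raf926-/- in the labels) and 3 libraries of wild type (WT) embryos, and the comparison asks which transcripts change when Raf, the kinase between Ras and MEK, is lost from the maternal contribution. Raf926 is a single X-linked allele with a frameshifting deletion, recombined onto FRT19A, and eggs came from germline clones made with FLP/FRT and the dominant female-sterile mutation OvoD2. The crosses also list the marker w on the Raf926 chromosome. WT was the Oregon R strain, for which the paper names none of these elements. The strain background and the germline-clone procedure therefore cannot be told apart from the allele. Zygotic genotype was not given embryo by embryo, and the embryos were pooled whole. The methods state a collection from 0 to 12 h at 18 °C and the labels one of 24 h at 25 °C for both genotypes, and which was used is not settled here.

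The trachea is the branched tube system that carries air through the embryo and larva. It arises from paired ectodermal placodes, each of which invaginates and then sends out branches under control of the fibroblast growth factor Branchless and its receptor Breathless. Trachealess (trh) is the master regulator of the placodes and works as a dimer with Tango (tgo), the common partner of the bHLH-PAS proteins and the fly counterpart of ARNT. Ribbon (rib), a BTB-domain protein, and Ventral veins lacking (vvl), a POU-homeodomain protein, act beside them in branch outgrowth. The related zinc finger proteins Spalt major (salm) and Spalt-related (salr) mark the dorsal trunk, and Dysfusion (dys, annotated as dysf), another bHLH-PAS protein, acts in the fusion cells that join neighbouring segments. Of these genes, trh is known mainly from the trachea and a few related ectodermal tissues. Most of the others are used in several embryonic tissues, and tgo is expressed broadly.

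Libraries held between 33275401 and 38120428 expected counts, which are the read numbers per gene estimated by RSEM. Normalized counts, used below, are these numbers scaled by the TMM method to a common library size, and their means are given with the SD over the 3 libraries of a genotype. A gene was called when edgeR's quasi-likelihood test gave a Benjamini-Hochberg adjusted p under 0.1 and the fold change was over 1.5. The targeted gene Raf had between 2184 and 2935 normalized counts in WT and between 1202 and 1546 in Raf926. Its log2 fold change was -0.88 ± 0.15 (SE, adjusted p = 0.0016), and Raf transcript was therefore still detected in all 3 Raf926 libraries. The paper relates its reduced Raf reads to loss of the maternal supply with heterozygous expression from the zygote. The share of zygotic transcript was not tested here. Of all genes tested, 26.9% were called lower in Raf926, 22.7% higher and 49.7% in either direction, so a call in itself was common. Lists of other embryonic tissues and stages moved as well. The 8 muscle genes were all called lower, as were 4 of 4 midline genes, 5 of 6 neuronal genes and 2 of 3 oenocyte genes tested, and 5 of 6 maternal transcripts were called higher. These whole-embryo changes accompany each result below, and their part in it was not tested. In bulk embryos, fewer cells of a type and less RNA per cell cannot be told apart.

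Of the 7 genes, 4 were called lower in Raf926 (trh, rib, salm and salr, 57.1% against 26.9% of all genes), none was called higher and 3 were not called (tgo, vvl and dys). The same 4 genes were the ones whose WT and Raf926 libraries did not overlap, which was also true of 68.5% of all genes tested. The median log2 fold change of the 7 genes was -0.71, against -0.04 over all genes.

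**Figure D1:**
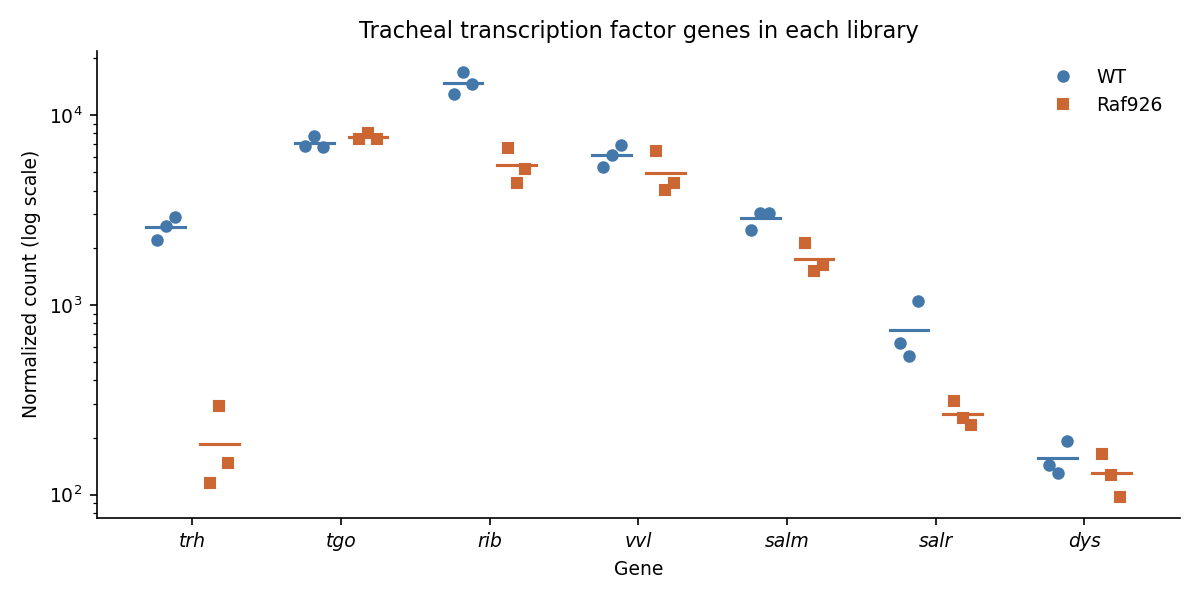
Normalized counts (log scale) of the 7 genes in the 3 WT libraries (circles) and the 3 Raf926 libraries (squares), with the mean of each genotype as a line. The genotypes are separated for trh, rib, salm and salr and overlap for tgo, vvl and dys.

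Trachealess, the placode regulator, changed most. The gene lies on chromosome 3L between positions 366524 and 392633 on the minus strand (BDGP6.54), with 7 annotated transcripts of 9 to 13 exons. WT libraries held 2209, 2601 and 2916 normalized counts of trh, and Raf926 libraries held 115.2, 295 and 147. Every Raf926 library was far below every WT library, and within Raf926 replicate 2 stood above the other 2. The WT mean of 2575 ± 354 stood against 186 ± 95.8 in Raf926 (SD), which is 7.21% of WT, with a log2 fold change of -3.79 ± 0.35 (SE, edgeR quasi-likelihood adjusted p = 0.000126). By this value trh was 484th from the lowest of the 11568 genes. An exact two-sided permutation test of the 6 libraries gave p = 0.1, the smallest that 3 against 3 allows, as it did for each of the 4 genes called. Raf926 replicate 2 was also the Raf926 library with the most muscle transcript, at a summed 220 TPM (transcript abundance corrected for length and scaled to a fixed total) for the 8 muscle genes against 16.0 and 9.31 in the other 2 and 1453 to 3003 in WT. Midline genes summed to 44.4, 30.2 and 29.8 TPM in Raf926 replicates 1 to 3, and neuronal genes to 25.2, 23.8 and 20.3. Salivary gland genes, described below, summed to 60.7, 42.2 and 44.1 TPM. These lists were highest in replicate 1, as were the POU and posterior spiracle lists below. Replicate 2 was slightly highest for oenocyte genes (22.2, 22.3 and 19.6 TPM) and the signalling genes below (535, 548 and 523 TPM). Excluding Raf926 replicate 2 put trh at a log2 fold change of -4.29. A long non-coding RNA annotated on the same strand, lncRNA:CR45378, overlaps trh by 628 bases and had at most 9.42 expected counts in any library.

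Tango, the dimer partner of Trachealess, was not called, and its genotypes overlapped in normalized counts but not in TPM. The gene lies on chromosome 3R between 9016773 and 9020022 on the minus strand. WT libraries held 6850.3, 7798 and 6811.5 normalized counts and Raf926 libraries 7471, 7995 and 7490.2, and the 2 sets overlapped. The means were 7153 ± 559 and 7652 ± 297 (SD). The log2 fold change of 0.10 had a 95% interval of -0.12 to 0.31 (edgeR adjusted p = 0.39), an interval that excludes a fold change of 1.5 in either direction. Its sign turned negative under 2 other scalings (-0.10 with library size alone and -0.06 with the upper quartile). In TPM, which is scaled without TMM and by transcript length, WT libraries held 80.2, 88.8 and 84.1 and Raf926 libraries 71.3, 76.9 and 68.6. On that scale every Raf926 library was below every WT library. The 3′ end of tgo overlaps CG11986 on the opposite strand by 50 bases, and CG11986 was not called either (log2 fold change -0.26, edgeR adjusted p = 0.19).

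**Figure D2:**
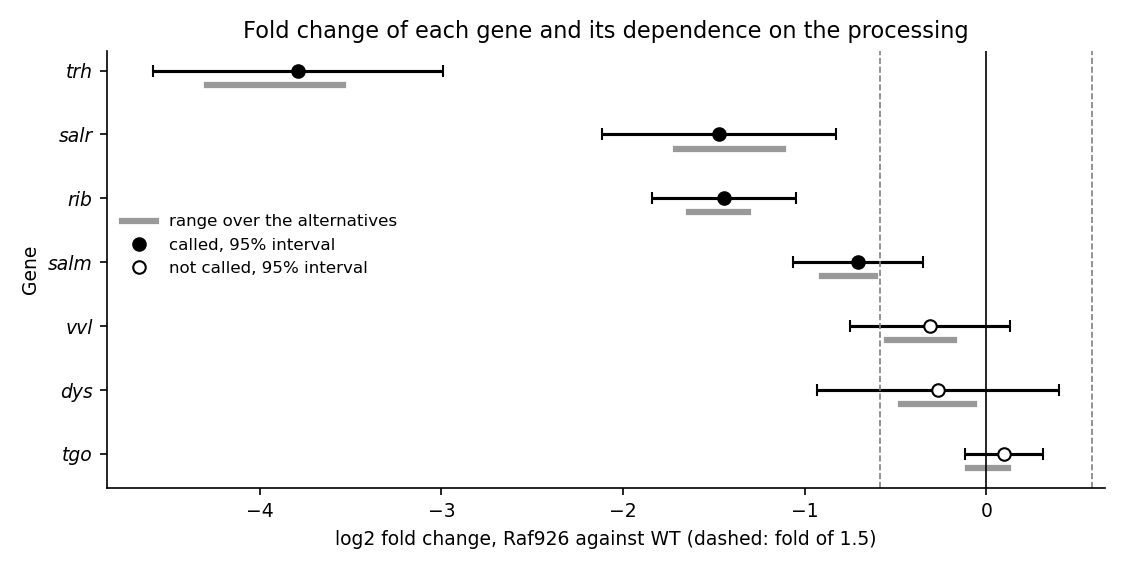
Log2 fold change of each gene in Raf926 against WT (circles, filled where called) with its 95% interval, and in grey the range over 17 alternative ways of processing. Dashed lines mark a fold of 1.5, and the interval of tgo lies between them while those of trh, rib and salr lie below the lower one.

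Ribbon, which drives cell shape change and tube growth in trachea and salivary gland, was the most abundant of the 7 in WT. It lies on chromosome 2R between 19270078 and 19281396 on the plus strand. WT libraries held 12944, 16852 and 14567 normalized counts and Raf926 libraries 6702, 4405 and 5224. All Raf926 libraries were below all WT libraries, with replicate 1 the highest of the Raf926 set. The mean fell from 14788 ± 1963 to 5444 ± 1164 (SD), or 36.8% of WT, with a log2 fold change of -1.44 ± 0.17 (SE, edgeR adjusted p = 0.00038).

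Ventral veins lacking, which acts with Trachealess on tracheal target genes and is also used in midline glia and neurons, was not called. The gene has a single exon on chromosome 3L, between 6790158 and 6794941 on the plus strand. WT libraries held 5319.9, 6183 and 6988 normalized counts and Raf926 libraries 6481, 4038 and 4410.5. Replicate 1 of Raf926 lay inside the WT range and the other 2 below it. The means were 6164 ± 834 and 4977 ± 1316 (SD), and the log2 fold change of -0.31 had a 95% interval of -0.75 to 0.13 (edgeR adjusted p = 0.19). With Raf926 replicate 1 left out the log2 fold change was -0.55 with an edgeR adjusted p of 0.0146, still short of a fold of 1.5. Under 2 other scalings of all 6 libraries vvl also passed the adjusted p threshold but not the fold. It was at -0.51 with library size alone (edgeR adjusted p = 0.058) and -0.47 with the upper quartile (edgeR adjusted p = 0.070).

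The spalt genes lie close together on chromosome 2L, salr between 11358873 and 11373636 on the plus strand and salm between 11434311 and 11445614 on the minus strand, 60674 bases apart with 1 annotated gene between them. For salm, WT libraries held 2491, 3047 and 3042 normalized counts and Raf926 libraries 2122, 1512 and 1625. The gap between the lowest WT and the highest Raf926 library was small beside the fall in the means, from 2860.1 ± 319.5 to 1753 ± 324 (SD). The log2 fold change was -0.71 ± 0.15 (SE, edgeR adjusted p = 0.0055). It passed the call, but not a test against a fold of 1.5 itself (glmTreat adjusted p = 0.20).

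For salr, WT libraries held 629, 538 and 1047 normalized counts and Raf926 libraries 312, 254 and 233. WT replicate 3 was well above the other WT libraries, and all WT libraries were above all Raf926 libraries. The mean fell from 738 ± 272 to 266 ± 40.7 (SD), or 36.1% of WT, with a log2 fold change of -1.47 ± 0.28 (SE, edgeR adjusted p = 0.0029). Without WT replicate 3 the log2 fold change was -1.12 and the gene was still called.

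Because salm and salr share much of their expression and function, their ratio was taken within each library. The salr to salm ratio of TPM values was 0.301, 0.21 and 0.414 in WT and 0.174, 0.222 and 0.171 in Raf926. The genotypes overlapped, with a difference of -0.66 on the log2 scale (exact permutation p = 0.2). An unequal change of the 2 genes was therefore not shown.

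Dysfusion was the rarest of the 7. It lies on chromosome 3R between 26076592 and 26098711 on the minus strand. WT libraries held 144, 129.5 and 193 normalized counts and Raf926 libraries 164, 127 and 97.8. The 2 sets overlapped broadly, with means of 155 ± 33.0 and 129.6 ± 33.2 (SD). The log2 fold change of -0.26 had a 95% interval of -0.93 to 0.40 (edgeR adjusted p = 0.45), so that at this depth a fold change of 1.5 downwards was not excluded. A long non-coding RNA that overlaps dys on the same strand, lncRNA:CR44319, had no more than 2 expected counts in any library.

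Levels can be compared between genes in TPM, which takes length into account. In WT the order of mean TPM was rib (127 ± 15.4), tgo (84.3 ± 4.28), vvl (45.8 ± 8.31), trh (19.1 ± 3.45), salm (15.5 ± 2.09), salr (4.85 ± 2.09) and dys (1.28 ± 0.32). Only trh and salm overlapped between their neighbouring ranks, since WT trh ran from 16.1 to 22.9 TPM and WT salm from 13.3 to 17.5 TPM. In Raf926 tgo led with 72.3 ± 4.26 TPM, followed by rib (38.7 ± 8.28), vvl (30.6 ± 8.31) and salm (7.87 ± 1.48). Below these came salr (1.47 ± 0.23), trh (1.14 ± 0.60) and dys (0.93 ± 0.25). The trh libraries spanned 0.72 to 1.83 TPM and reached into both neighbours, so trh stood at the level of salm in WT and at that of the 2 rarest genes in Raf926. The ranges of rib and vvl overlapped as well.

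Ratios within a library are given as a description, 3 of them with trh and 1 without. The trh to vvl ratio of TPM values was 0.415, 0.422 and 0.416 in the 3 WT libraries, close to constant although both genes varied between them, and 0.0179, 0.0726 and 0.0333 in Raf926. The trh to rib ratio was 0.147, 0.133 and 0.173 in WT and 0.015, 0.0576 and 0.0242 in Raf926. The dys to trh ratio moved the other way, from 0.0739, 0.0554 and 0.0716 in WT to 1.60, 0.536 and 0.739 in Raf926. In each of these 3 ratios with trh the genotypes did not overlap, which follows from the large fall of trh given above. The vvl to tgo ratio was 0.484, 0.492 and 0.654 in WT and 0.563, 0.328 and 0.385 in Raf926, and there they overlapped.

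Tango is the shared dimer partner of Trachealess and other bHLH-PAS proteins, and transcripts of 5 such genes (trh, dys, sim, ss and sima) were summed. The sums are of RNA in whole embryos. Protein levels, the cells that hold each transcript and competition for Tango were not measured. Single-minded (sim) is the midline regulator, Spineless (ss) acts in antenna, limb and bristle development, and Similar (sima) is the hypoxia-inducible factor. In TPM, trh made up 22.7%, 25.2% and 26.4% of the 5 in WT and 1.19%, 2.89% and 1.52% in Raf926. The share dropped by 22.9 percentage points, with no overlap between genotypes (exact permutation p = 0.1, the smallest possible). This separation follows from the fall of trh itself and is no separate support for it. sima made up 68.1%, 62.2% and 63.0% in WT and 94.1%, 93.0% and 95.1% in Raf926. Mean sima counts were 8978 ± 409 and, in Raf926, 12297 ± 221 (SD, log2 fold change 0.45, edgeR adjusted p = 0.0024), under the fold needed for a call. Both trh and sim were called lower, sim with a log2 fold change of -5.08 ± 0.63 (SE, edgeR adjusted p = 0.00045), as was ss at -0.65 ± 0.22 (adjusted p = 0.034). Raf926 libraries held 9.31, 21.0 and 2.10 normalized counts of sim, so the size of its fold rests on few Raf926 reads. Raf926 replicate 2 weighed on sim, which was at -6.02 without that library. The call of ss held in 13 of 17 alternatives and was lost with the replicate block, without WT replicate 3, without Raf926 replicate 3 and under glmTreat. The summed TPM of the 5 partners per TPM of tgo was 0.885, 0.825 and 1.03 in WT and 0.848, 0.823 and 0.842 in Raf926, and these values overlapped.

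**Figure D3:**
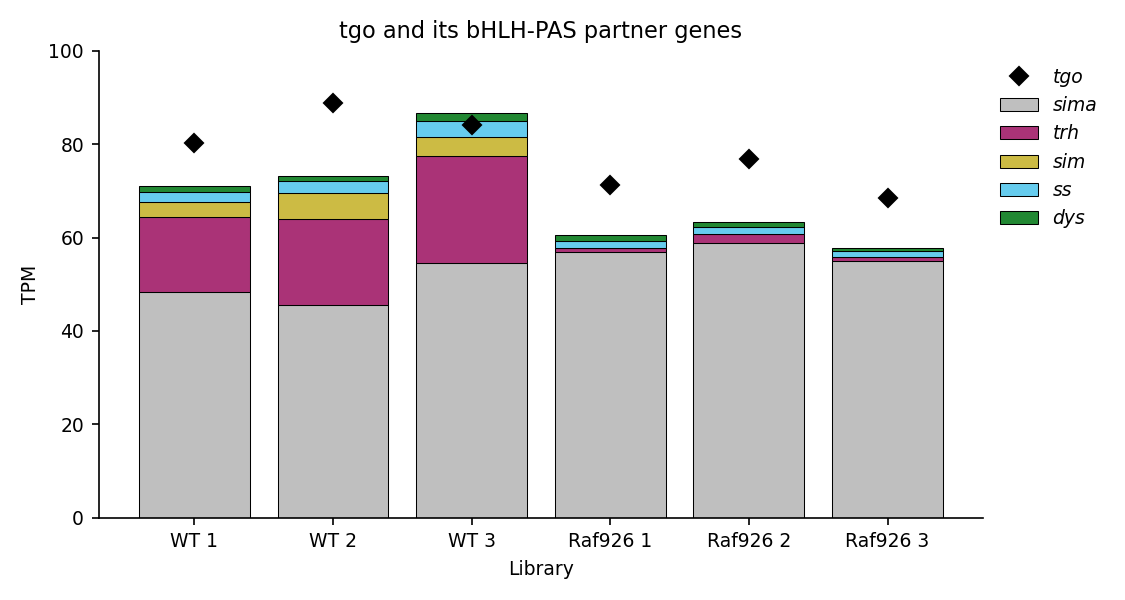
TPM of the 5 bHLH-PAS partner genes of Tango, stacked for each library, with tgo as diamonds. The trh segment spans 16.1 to 22.9 TPM in WT and 0.72 to 1.83 TPM in Raf926, and tgo spans 80.2 to 88.8 TPM in WT and 68.6 to 76.9 TPM in Raf926.

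Among the 8 other bHLH-PAS family genes and co-factors counted (sim, ss and sima included), 2 were called lower (sim and ss, the latter with the losses given above), 2 higher and 4 not called. Without WT replicate 3, gce was called higher as well. The 2 called higher were the circadian pair Clock (Clk, log2 fold change 4.58 ± 0.45) and cycle (cyc, 2.45 ± 0.30; both SE). Clk was near the limit of detection in WT, with a mean of 3.89 normalized counts against 97.4 in Raf926, so its fold rests on few WT reads. Of the 4 POU genes other than vvl, 3 were called lower, with log2 fold changes of -2.65 for nub, -1.47 for acj6 and -1.13 for pdm2. nub and pdm2 act in neuroblasts and limb primordia and acj6 in neurons.

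The deposited tables also give a mean transcript length per gene, which moves with the transcript forms that RSEM assigned. It was compared for the 5 genes with at least 100 counts in every library (tgo, rib, vvl, salm and salr). For tgo it was 2949 ± 30.7 bases in WT and 3044 ± 24.9 bases in Raf926 (SD), with no overlap (exact permutation p = 0.1, or 0.5 after adjustment over the 5 genes). The other 4 genes overlapped between genotypes. tgo has 2 annotated transcripts with the same coding length of 1926 bases, tgo-RA of 3108 bases with a 3′ UTR of 981 bases and tgo-RB of 2634 bases with a 3′ UTR of 507 bases. The 50 bases shared with CG11986 lie at this 3′ end. By the lengths, tgo-RA made up an estimated 61.6%, 63.8% and 73.8% of tgo in WT and 82.6%, 84.3% and 92.4% in Raf926. All Raf926 libraries were above all WT libraries, and with 3 libraries a genotype this difference could not pass a threshold of 0.05.

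**Figure D4:**
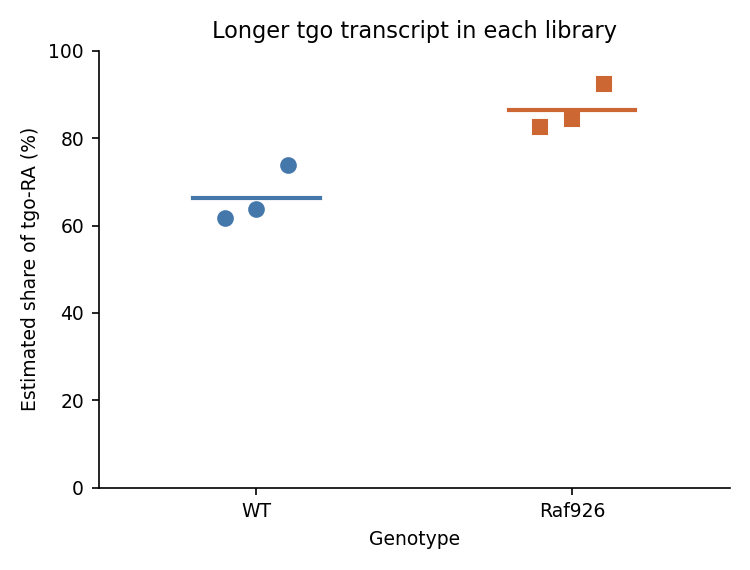
Estimated share (%) of the longer transcript tgo-RA in each library, from the RSEM mean length of tgo, with the mean of each genotype as a line. WT libraries lie between 61.6% and 73.8% and Raf926 libraries between 82.6% and 92.4%.

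The pathway around the 7 genes was described with lists of its other members. Among 17 signalling genes that place the trachea and guide its branches, 9 were called lower, 1 higher and 7 were not called, with a median log2 fold change of -0.80. Breathless (btl), the fibroblast growth factor receptor of tracheal cells and a target of Trachealess and Tango, held 1353, 1879 and 1656 normalized counts in WT and 113, 241 and 139.8 in Raf926. The means were 1629 ± 265 and 165 ± 67.7 (SD), with a log2 fold change of -3.30 ± 0.30 (SE, edgeR adjusted p = 0.000125). As with trh, the highest Raf926 library was replicate 2. The btl to trh ratio of TPM values was 0.751, 0.889 and 0.696 in WT and 1.18, 1.01 and 1.17 in Raf926. Both genes were measured in whole embryos, so the tissue in which btl fell is not shown. A dependence of btl on trh was not tested.

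The cytoplasmic adaptor of the receptor, stumps, was called lower with a log2 fold change of -4.33 ± 0.18, and the pathway antagonist sprouty (sty) with -3.64 ± 0.15 (both SE). stumps is also expressed in mesoderm, and sty in other tissues with receptor tyrosine kinase signalling. The ligand gene bnl, named after its value was seen, had a log2 fold change of 0.55 (edgeR adjusted p = 0.019), short of a call. Its genotypes did not overlap. In 3 of 17 alternatives bnl was called higher, namely without WT replicate 3, without Raf926 replicate 2 and with no fold threshold. Among the upstream signals, the JAK/STAT ligand upd1 (-2.52), the protease rhomboid (rho, -1.84), the EGF-type ligand spitz (spi, -1.50), wingless (wg, -1.42), Egfr (-0.98) and the Dpp receptor thickveins (tkv, -0.80) were called lower on the log2 scale. Stat92E was called higher (0.76), a call that was lost when scaled by library size alone.

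Of 12 other transcription regulators of tracheal development, 11 were tested (escargot was not analysed here). Called lower were 7 of them, 1 was called higher and 3 were not called, with a median log2 fold change of -1.48. pointed (pnt), an effector of receptor tyrosine kinase signalling in tip cells, had a log2 fold change of -2.34 (edgeR adjusted p = 1.7e-05). The dorsal and visceral branch genes knirps (kni) and knirps-related (knrl) were at -2.07 and -1.48, empty spiracles (ems) at -2.18, Abd-B at -1.88, hindsight (peb) at -1.69 and tramtrack (ttk) at -0.90 on the same scale. headcase (annotated as heca), a fusion cell gene, was called higher with a log2 fold change of 0.87.

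Tracheal tube and lumen genes moved in the other direction, with 10 of 14 called higher, none lower and 4 not called, and a median log2 fold change of 0.76. The chitin-binding or chitin-modifying proteins led, with log2 fold changes of 3.31 for obst-A, 2.79 for Gasp, 2.75 for serp and 2.68 for verm, and the chitin synthase gene kkv rose by 1.20. Their summed TPM was 669, 597 and 902 in WT and 3173 (replicate 1), 2787 and 2207 in Raf926. These genes are also expressed in the epidermis and its cuticle, and the tables do not separate the tissues. Some of these calls were less firm, since dpy overlapped between genotypes and was called in 9 of 17 alternatives, rtv in 12 and conv in 13. In place of 10 genes of the list, 7 were called higher with library size alone, with the upper quartile, without Raf926 replicate 1 or under glmTreat. Without WT replicate 1 there were 8. There were 9 with no filter on low counts, without WT replicate 2 or without Raf926 replicate 3.

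trh and rib also act outside the trachea, in the salivary gland and its ducts and in the posterior spiracles. Of 8 salivary gland genes 6 were called lower, among them huckebein (hkb, log2 fold change -5.99), the prolyl hydroxylase genes PH4alphaSG2 (-4.44) and PH4alphaSG1 (-4.21), pipe (pip, -3.20), sage (-2.12) and fork head (fkh, -1.07). PH4alphaSG1 held 6.98, 51.4 and 14.7 normalized counts in Raf926, and without replicate 2 its log2 fold change was -5.36. hkb and fkh are terminal-region genes as well. Of 6 posterior spiracle genes 5 were called lower, including cut (ct, -1.55) and grain (grn, -1.19), and 3 of these 5 (ems, Abd-B and upd1) are also on the lists above. The median log2 fold changes were -2.66 and -1.72.

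**Figure D5:**
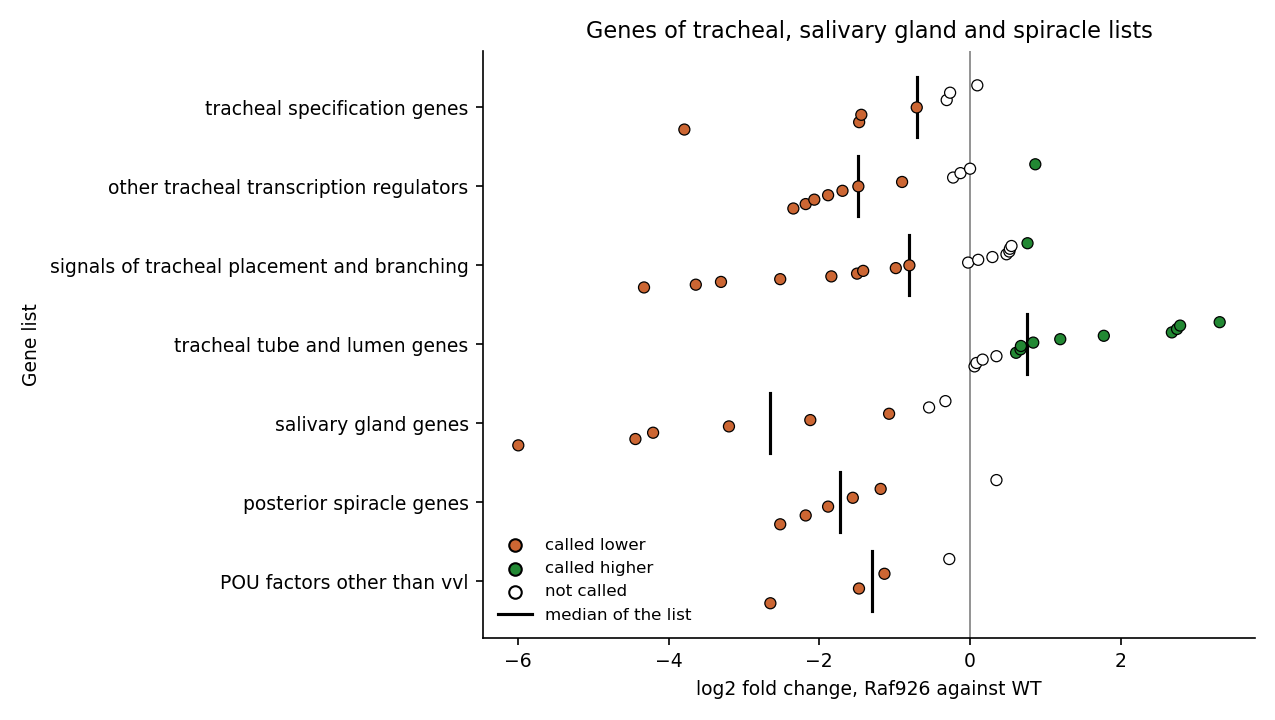
Log2 fold change in Raf926 against WT of each tested gene on 7 lists, coloured by call, with the median of each list as a vertical line. The tracheal tube and lumen genes lie above 0 with a median of 0.76, while the other 6 lists have medians between -2.66 and -0.71.

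The genes most like each of the 7 were sought by the distance between log2 normalized counts centred over the 6 libraries, among 9069 tested genes with a mean of at least 100. Nearest to trh were the copper transporter gene Ctr1B (distance 0.405) and the metallopeptidase gene Nep4 (0.526), with Ctr1B at 303, 365 and 462 normalized counts in WT and 16.3, 36.7 and 15.8 in Raf926. Like trh, Ctr1B and Nep4 were highest in replicate 2 among the Raf926 libraries, a likeness that their selection by nearness to trh favours. For rib the nearest were CG9286 (0.116) and spi (0.117). For tgo they were dor (0.0695) and CG14442 (0.0733), for vvl Srr (0.142) and luna (0.165), for salm tay (0.155) and TM9SF4 (0.171), for salr CG13954 (0.186) and Strn-Mlck (0.194), and for dys Tsp42Ej (0.154) and CG13795 (0.162). Among the 7 genes themselves the closest pairs were vvl with dys (0.481) and vvl with salm (0.51), and the farthest was trh with tgo (4.99). These distances are descriptions over the same 6 libraries.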

How the data were processed

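RNA of whole embryos was sequenced by the authors, aligned with STAR 2.7.1a and quantified with RSEM 1.3.1 on BDGP6.22 (dm6, Ensembl release 97). The deposited tables hold expected counts per gene, TPM and FPKM as RSEM gave them (FPKM not used) and the lengths behind the deposited TPM values. Expected counts were rounded, and 11.5% were not whole (tolerance 0.001). Names, coordinates and transcript lengths came from BDGP6.54 (Ensembl), which matched 17587 of 17714 identifiers. After 390 rRNA, snoRNA and snRNA genes and genes with a mean under 10 counts were removed, genotypes were compared with edgeR 4.0.16 (R 4.3.3, TMM, quasi-likelihood test, Benjamini-Hochberg adjustment over 11568 genes). DESeq2 1.42.0 served as an alternative. The test code was also run on simulated counts in which few genes were changed. That run does not check the scaling for data with as many changes as these. Single values were compared by exact two-sided permutation tests (scipy 1.17.1). Intervals use the t distribution of the quasi-likelihood fit, and a standard error is the log2 fold change divided by the root of F. Reads carried no molecular identifiers and strand use in counting is not given in the sources used here, so overlapping genes are less certain.

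The genes and lists were chosen with earlier results of these data known. Named genes are the 7, called genes of each list, the 2 nearest genes of each, and overlapping genes. Genes named without a call outside this rule were chosen after their values were seen. The 3 libraries per genotype are biological replicates per the methods. Alternatives covered scaling, test, filter, call threshold, gene length, replicate block and each library left out.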

Additional observations from a re-analysis of the deposited data

How the results depend on the processing

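trh, rib and salr were called lower under all 17 alternatives and salm under 16, the exception being glmTreat against a fold of 1.5 (log2 fold change -0.71, adjusted p = 0.20). tgo, vvl and dys were called under none of the 17. The sign of tgo reversed with library size alone (-0.10) and upper-quartile scaling (-0.060). Over all genes these scalings shifted the median by -0.20 and -0.16 (log2) and changed the calls from 2631 higher and 3116 lower to 1967 and 3833, and to 2078 and 3675. Computed from expected counts without length, the drop in the trh share among Tango partners was -19.2 percentage points. With effective length, the Raf926 minus WT length difference was 4.02 bases for rib and 2.86 bases for salm, against 1.34 and 0.18 with length. With the replicate block, 5493 genes were called against 5747 and the same number of the 7 genes (4). Same-numbered libraries did not deviate together (correlations -0.046, -0.202 and -0.187). With deviations centred within 3 libraries a genotype, these correlations cannot decide whether same-numbered libraries were prepared together. With 3 libraries each, an exact test cannot pass 0.05.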
